A study of Mus musculus with 30 samples.

Results

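The 3 Period genes (Per1, Per2 and Per3) and the 2 cryptochrome genes (Cry1 and Cry2) were taken by gene symbol from the count tables of mouse hearts and of HL-1 cells. They are 5 of the 20764 genes listed for the hearts and 5 of the 54532 genes listed for HL-1 cells. All 5 passed the filter on low counts in both tables, where 15443 heart genes and 14760 HL-1 genes were tested. PER and CRY proteins form the repressor complex of the circadian clock. CLOCK and BMAL1 (the product of Arntl) bind E-boxes and drive transcription of the Per and Cry genes, and the PER and CRY proteins return to the nucleus and inhibit CLOCK and BMAL1. PER1 and PER2 carry the core repressor function together with either cryptochrome, Per3 is not required for the rhythm of most tissues, and the D-box factors DBP, TEF and HLF and the REV-ERB repressors (Nr1d1 and Nr1d2) add further timing to these genes.

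In GRCm38 with the GENCODE M21 annotation, Per1 (ENSMUSG00000020893) lies on the plus strand at chr11:69095217-69109960, and the other members lie on the minus strand. Per2 (ENSMUSG00000055866) lies at chr1:91415982-91459324 and Per3 (ENSMUSG00000028957) at chr4:151003652-151044665. Cry1 (ENSMUSG00000020038) lies at chr10:85131700-85185064 and Cry2 (ENSMUSG00000068742) at chr2:92403646-92434043. Per3 lies within the gene body of Camta1 on the same strand but shares 0 exon bases with it. Cry2 shares 295 exon bases, 4.67% of its exon length, with the antisense gene D930015M05Rik. The heart libraries were stranded and for the HL-1 libraries the strand setting is not given in the sources used here, so reads from those 295 bases of Cry2 cannot be told apart from antisense reads in HL-1 cells.

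Hearts came from female C57BL6 mice (by the methods of the study a mixed background of the J and N substrains) kept on standard chow and a light/dark cycle, and were taken at ZT10 (in the light) or ZT22 (in the dark), where ZT counts hours from lights on. Young mice were 2 months old. Old mice were 12 months old and drank either water without supplement (old H2O, named MQ in the labels) or water with nicotinamide riboside (NR, a precursor of NAD+) at 3 g/l (old NR). Each of the 6 heart groups held 3 libraries. HL-1 cells, a mouse line that arose from an atrial tumor, were left untreated (Ctrl), or received FK866 (FK, an inhibitor of NAMPT, the rate-limiting enzyme of NAD+ salvage), FK866 and NR (FK+NR), or FK866, NR and the SIRT1 inhibitor Ex527 (FK+NR+Ex), with 3 libraries in each of the 4 groups. By the methods of the study, replicates were individual mice or wells cultured apart. The labels give no time of harvest for the cells.

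Library totals ran from 3922137 to 7562215 counts in hearts (median 5534659) and from 21337922 to 35000109 in HL-1 cells (median 25529294). The cardiomyocyte markers Myh6, Tnnt2, Actc1, Ryr2, Pln and Ttn summed to between 7796 and 11275 CPM (counts scaled to a common library size) in the hearts. In the 12 HL-1 libraries the same 6 genes summed to between 0.519 and 4.54 CPM, with Actc1 and Pln at 0 in all of them. Of the 4 listed fibroblast markers, Col1a1 averaged 612, Dcn 141 and Pdgfra 24.3 CPM in HL-1 cells, and Tcf21 was at 0 in all 12 libraries. The HL-1 libraries are therefore described here by their label and treatment only, since their defining muscle markers were absent or nearly so. Among the old NR hearts at ZT10, replicates 1 and 3 differed by a chi-square of 1.07 per gene (p = 4.31e-08, chi-square test over 13870 genes), against 1.71 to 6.68 in all other pairs of hearts of the same group. They were kept as 2 libraries, and no call on a member changed when their counts were summed into 1, an alternative added after seeing the data. Whether fewer cells of one type or less RNA per cell underlies a lower level cannot be told apart in bulk tissue.

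The sequences before the transcription start sites are shown because the members move with the clock, and the E-box and D-box are the elements through which clock factors act on them. Windows of 300 bases (250 before and 50 after the start site) were taken from RefSeq on GRCm38.p6 for Per1 (2 start sites), Per3, Cry1 and Cry2, and 4 of the 5 members had an entry. Searched on both strands, the E-box CACGTG occurred in 7.15% of 32851 mouse promoters, its variant CACGTT (the E'-box) in 4.68%, the D-box (TTATGTAA or TTACGTAA) in 1.06%, and the first 7 letters of the cAMP response element (TGACGTC) in 3.21%. The windows below run 5′ to 3′ on the strand of the gene, with the matched element in capitals, and positions are counted from the start site.
Cry1, E-box at -60, chr10:85185096-85185125, minus strand: gtgccggtggtCACGTGgggtgcatgccgc
Cry1, E'-box at -79, chr10:85185115-85185144, minus strand: cacacttcagaAACGTGaggtgccggtggt
Per1 first start site, E-box at -166, chr11:69098772-69098801, plus strand: gcacccaagtcCACGTGcagggatgtgtgt
Per1 second start site, cAMP half-site at -132, chr11:69100009-69100038, plus strand: agctcagcggcTGACGTCggtttccctggc
Cry2, E'-box at -166, chr2:92434217-92434246, minus strand: cacatggtgggAACGTGagggggcggagcc
Per3, D-box at -205, chr4:151044852-151044881, minus strand: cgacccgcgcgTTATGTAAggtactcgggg
Per3, D-box at -158, chr4:151044805-151044834, minus strand: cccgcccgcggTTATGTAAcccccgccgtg

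Cry1 held both an E-box and, further from the start site, an E'-box. Per3 held 2 copies of the same D-box, and none of the other windows had a D-box match. The E-box and E'-box are read by CLOCK and BMAL1, and the D-box by DBP, TEF and HLF. The core of the ROR element (TAGGTCA, in 2.61% of promoters) and the full cAMP response element (TGACGTCA, in 1.79%) were not found in any of these windows, which says only that those letters are not in these bases. The CCAAT box (CCAAT) was found in all 5 windows and in 37.4% of all promoters.

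To compare the members with each other, CPM levels were divided by the merged exon length of each gene in kilobases (RPKM). In young hearts at ZT10, Per1 was the highest at 44.2 ± 3.905 RPKM (SD, n = 3), followed by Per2 (25.9 ± 0.663), Per3 (23.7 ± 1.30), Cry2 (19.8 ± 0.251) and Cry1 (12.4 ± 1.74). In young hearts at ZT22 Cry1 had moved from last to first, and it led at 24.5 ± 1.84 RPKM and Per3 was lowest at 2.61 ± 0.343 RPKM. In old H2O hearts at ZT22, Per3 (5.12 ± 0.0516 RPKM) and Per2 (4.87 ± 1.19 RPKM) could not be ordered, as their libraries overlapped. Per1 led at ZT10 and Cry1 led at ZT22 by the mean in young, old H2O and old NR hearts, although Per1 and Cry1 libraries overlapped at ZT22 in both old groups. In HL-1 cells Cry1 led in all 4 groups, with means from 8.97 to 10.7 RPKM, and Per3 was lowest by the mean, with means from 1.39 to 2.18 RPKM. Per3 and Cry2 libraries overlapped with FK+NR. The hearts and the HL-1 cells were counted by different pipelines, so levels are set side by side across them without a test.

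**Figure D1:**
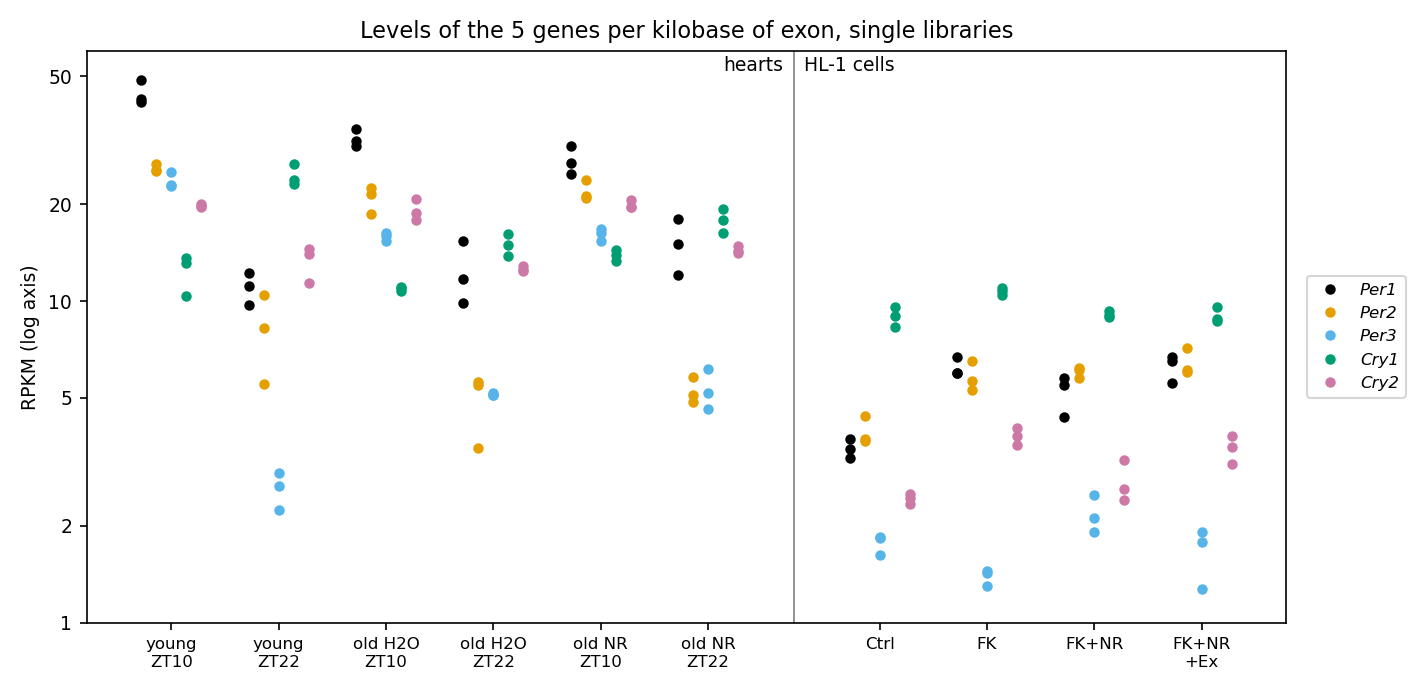
Levels of the 5 genes in RPKM on a log axis, by group, with 1 point for each library (18 hearts on the left, 12 HL-1 libraries on the right). Per1 is on top in hearts at ZT10 (44.2 RPKM on average in young hearts), Cry1 is on top in HL-1 cells (8.97 RPKM in Ctrl), and Per3 is at the bottom in young hearts at ZT22 (2.61 RPKM) and, by the mean, in HL-1 cells, where it overlaps Cry2 with FK+NR.

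The first comparison asked how far the repressor genes differ between day and night in hearts of each age and treatment. All 5 members were called in each of the 3 groups of hearts, with Per1, Per2, Per3 and Cry2 higher at ZT10 and Cry1 higher at ZT22. In none of the 15 cases did the 2 times overlap, but the share of all genes without overlap was not counted. Calls in hearts rest on edgeR's quasi-likelihood test at an adjusted p under 0.05, with the Benjamini-Hochberg adjustment over all genes tested. Among all genes tested, 14.4% were called between the times in young hearts, 4.2% in old H2O hearts and 5.37% in old NR hearts. With 2 time points, the height and timing of a peak cannot be derived, and a positive log2 fold change below means a higher level at ZT10. Values per library are TMM-normalized CPM.

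Per1, a core repressor that also responds rapidly to hormones and cAMP, measured 233, 239 and 274 CPM in young hearts at ZT10 and 54.7, 68.7 and 62.9 CPM at ZT22. In old H2O hearts it measured 177, 171 and 193 CPM at ZT10 and 55.4, 66.0 and 86.7 CPM at ZT22. In old NR hearts it measured 139, 171 and 151 CPM at ZT10 and 84.8, 101.2 and 67.7 CPM at ZT22. Every ZT10 library was above every ZT22 library of its group, and the young ZT10 libraries were above those of both old groups. The log2 fold change between the times was 1.99 (SE 0.14, adjusted p = 1.35e-09, edgeR) in young, 1.35 (SE 0.13, adjusted p = 1.12e-06) in old H2O and 0.86 (SE 0.13, adjusted p = 0.000243) in old NR hearts, or 3.98-fold, 2.55-fold and 1.82-fold.

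Per2, the core repressor whose loss shortens or abolishes behavioral rhythms in mice, measured 156, 150.003 and 149 CPM in young hearts at ZT10 and 32.3, 48.5 and 61.0 CPM at ZT22. Old H2O hearts held 126, 131 and 109 CPM of Per2 at ZT10 and 20.5, 32.8 and 32.2 CPM at ZT22. Old NR hearts held 122, 139 and 124 CPM at ZT10 and 34.0, 29.8 and 28.5 CPM at ZT22. The times were far apart in every group, and the young ZT22 libraries spread more widely than those of any other heart group relative to their mean. For Per2 the log2 fold change came to 1.66 (SE 0.14, adjusted p = 3.49e-08) in young, 2.05 (SE 0.15, adjusted p = 1e-08) in old H2O and 2.08 (SE 0.15, adjusted p = 3.19e-09) in old NR hearts, or 3.17-fold, 4.15-fold and 4.23-fold.

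Per3 had the greatest difference between the times of the 5 genes in young hearts. It measured 221, 219.7 and 242 CPM in young hearts at ZT10 and 25.6, 21.6 and 28.1 CPM at ZT22. In old H2O hearts it measured 153, 156 and 147 CPM at ZT10 and 49.8, 48.9 and 48.9 CPM at ZT22. In old NR hearts it measured 161, 156 and 148 CPM at ZT10 and 44.4, 59.2 and 49.7 CPM at ZT22. Young hearts lay above both old groups at ZT10 and below both at ZT22 in every library. The log2 fold change was 3.18 (SE 0.09, adjusted p = 3.71e-16) in young, 1.63 (SE 0.08, adjusted p = 2.11e-11) in old H2O and 1.58 (SE 0.08, adjusted p = 2.28e-11) in old NR hearts, or 9.09-fold, 3.10-fold and 2.99-fold.

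Cry1, whose protein is the stronger repressor of the cryptochrome pair, ran opposite to the other members. It measured 43.9, 45.5 and 34.7 CPM in young hearts at ZT10 and 79.6, 88.8 and 77.1 CPM at ZT22. Old H2O hearts held 36.6, 36.8 and 35.8 CPM at ZT10 and 46.1, 54.1 and 49.9 CPM at ZT22. Old NR hearts held 44.5, 46.5 and 48.0 CPM at ZT10 and 64.4, 59.9 and 54.5 CPM at ZT22. The night level of every young library was above every old library, while young and old libraries overlapped at ZT10. Its log2 fold change was -0.98 (SE 0.09, adjusted p = 1.23e-07) in young, -0.47 (SE 0.09, adjusted p = 0.00497) in old H2O and -0.35 (SE 0.09, adjusted p = 0.0175) in old NR hearts, or 1.97-fold, 1.38-fold and 1.28-fold lower at ZT10. In old NR hearts this call was lost without ZT10 replicate 1 or 2 or ZT22 replicate 1 or 2, where the adjusted p was 0.0795, 0.0563, 0.0619 and 0.0696.

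Cry2, whose protein partners PER proteins as CRY1 does, measured 124, 125 and 127 CPM in young hearts at ZT10 and 71.99, 91.6 and 88.8 CPM at ZT22. In old H2O hearts it measured 119, 131 and 113 CPM at ZT10 and 78.8, 78.4 and 81.0 CPM at ZT22. In old NR hearts it measured 130, 124 and 124 CPM at ZT10 and 93.6, 90.2 and 89.5 CPM at ZT22. Its ZT10 libraries of all ages and treatments occupied one range, whereas at ZT22 the old NR libraries were all above the old H2O libraries and the young libraries lay on both sides of the old H2O libraries. The log2 fold change was 0.57 (SE 0.07, adjusted p = 1.2e-05) in young, 0.61 (SE 0.07, adjusted p = 1.87e-05) in old H2O and 0.47 (SE 0.07, adjusted p = 0.000192) in old NR hearts, or 1.48-fold, 1.53-fold and 1.39-fold.

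**Figure D2:**
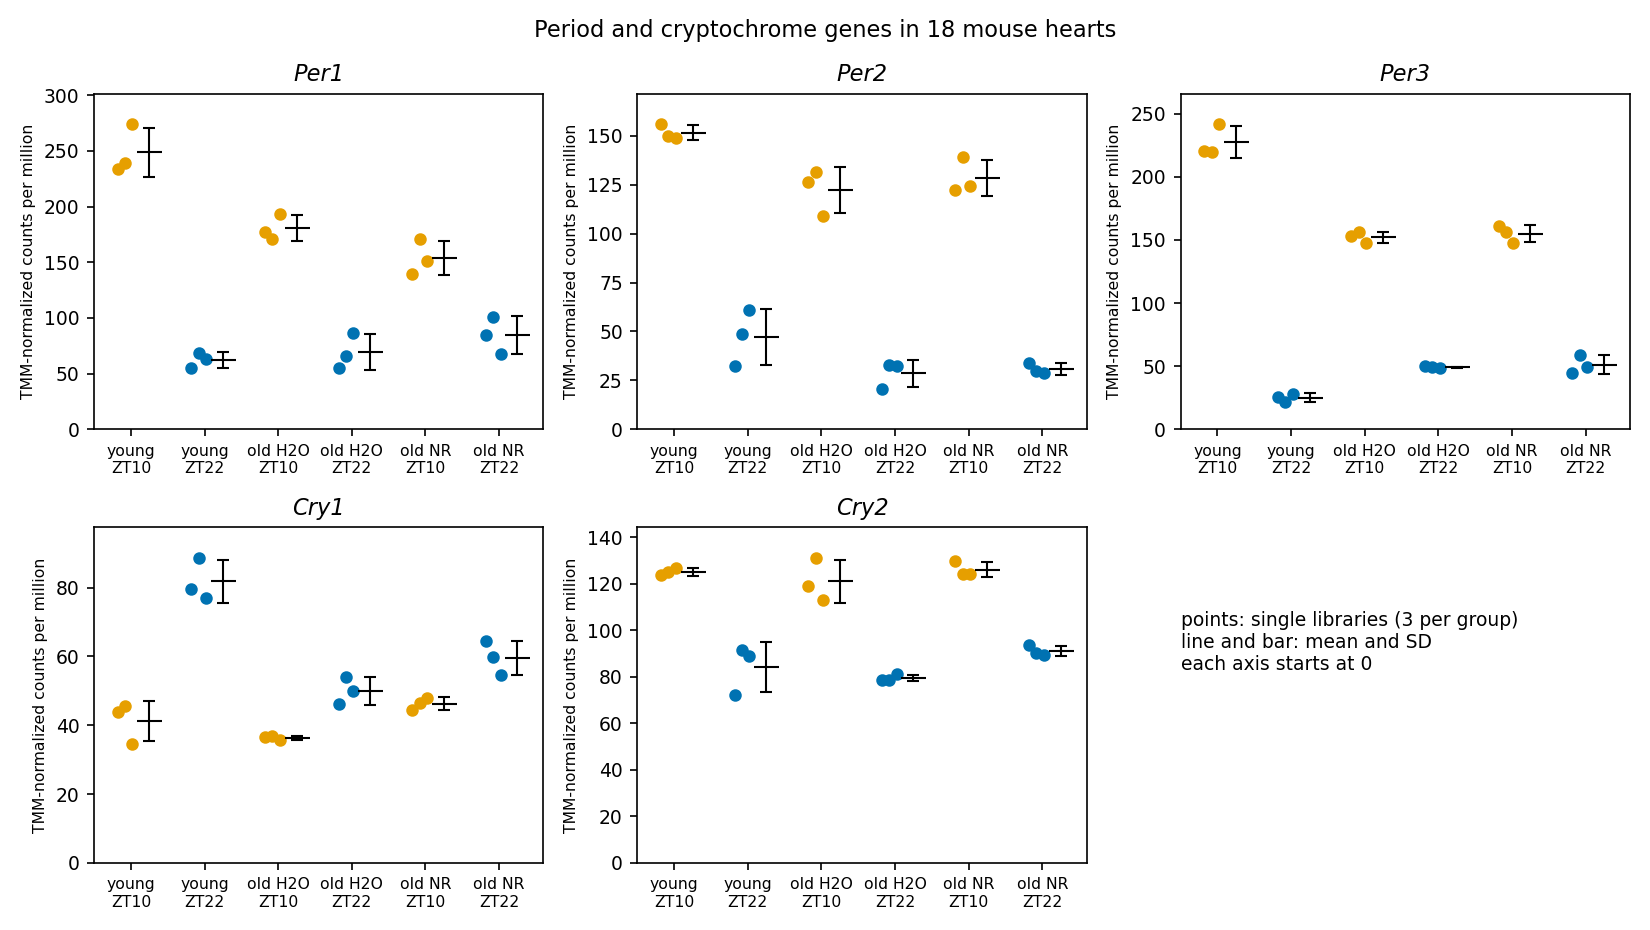
TMM-normalized CPM of each gene in the 18 hearts, with ZT10 in orange and ZT22 in blue, 1 point for each library and the mean and SD beside the 3 points of each group. The 2 times are apart in every gene and group, with Cry1 higher at ZT22 (79.6, 88.8 and 77.1 CPM in young hearts) and the other genes higher at ZT10.

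**Figure D3:**
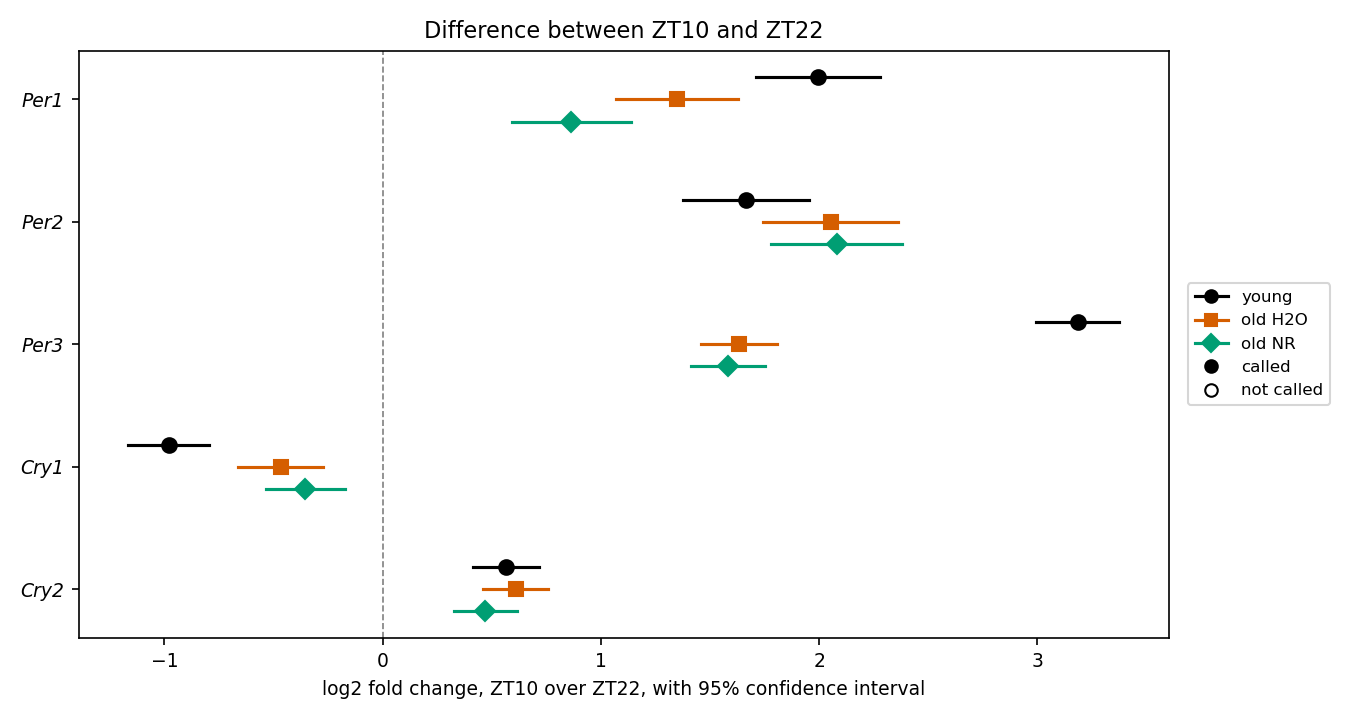
Log2 fold change of each gene between ZT10 and ZT22 (x axis) with its 95% confidence interval in young, old H2O and old NR hearts, where filled symbols mark called differences. Per3 stands at 3.18 in young and at 1.63 and 1.58 in the old groups, Per1 stands at 1.99 in young, 1.35 in old H2O and 0.86 in old NR hearts, and Cry2 is close to the same value in all 3.

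The rest of the clock moved between the same times. Of 15 other core clock and clock output genes, 8 were called higher and 5 lower at ZT10 in young hearts (median log2 fold change 0.63, against 0.01 over all genes tested), 9 and 5 in old H2O hearts (median 0.46, all genes -0.0010), and 8 and 5 in old NR hearts (median 0.71, all genes -0.01). Arntl, which encodes the activator BMAL1, was lower at ZT10, with -5.86 in young, -3.19 in old H2O and -4.55 in old NR hearts on the log2 scale. Dbp, the D-box activator, was higher at ZT10 by 4.66, 3.26 and 3.34, and Ciart, another repressor of CLOCK and BMAL1, by 2.93, 2.31 and 2.38. Of 21 genes for enzymes and partners that act on PER or CRY proteins (kinases, phosphatases, ubiquitin ligases and others), 1 was called in young hearts, Usp2, a deubiquitinase of clock proteins (log2 fold change 0.83, adjusted p = 3.02e-08). Usp2 was also called in old H2O (0.70) and old NR hearts (0.45), and Prkaa1, a catalytic subunit of AMPK, fell by 0.29 in old H2O hearts (adjusted p = 0.0136), which DESeq2 did not call. The kinases Csnk1d, Csnk1e and Gsk3b and the ubiquitin ligase subunit Btrc were not called between the times in any of the 3 groups of hearts.

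Signals known to reach Per genes from outside the clock were listed as well. Of 7 genes for the glucocorticoid receptor and its targets, 3 were called higher at ZT10 in young hearts (Tsc22d3, Klf9 and Zbtb16, against 2 in DESeq2) and Cdkn1a was called lower (it fell by 2.43, adjusted p = 1.44e-07). In old H2O hearts 3 were called higher and 0 lower, with the largest change in Zbtb16 (1.46, adjusted p = 0.000191), and in old NR hearts 2 were higher and 1 lower, with the largest in Cdkn1a (-1.15, adjusted p = 0.00174). Of 7 cAMP and serum inducible early genes, 6 were called lower at ZT10 in young hearts (5 in DESeq2), with a median log2 fold change of -0.93 over the list, the opposite direction from Per1 and Per2. Fos and Fosb each fell by 1.33 (adjusted p = 0.00476 and 0.0393), Egr1 fell by 1.14 (adjusted p = 7.86e-05) and Crem fell by 0.93 (adjusted p = 0.000558). None of the 7 was called between the times in old H2O or old NR hearts by edgeR, where 1 and 0 had an unadjusted p under 0.05, nor by DESeq2. Of all 15443 genes, 2731 in old H2O and 2787 in old NR hearts had an unadjusted p under 0.05 by edgeR. The 4 endothelial markers summed to between 1184 and 1248 CPM in young hearts at ZT10 and to between 1373 and 1508 CPM at ZT22, with 1 of 4 called lower at ZT10, and their part in the young time differences was not tested.

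The second comparison set old H2O against young hearts at each time. At ZT10, Per1 and Per3 were lower in old hearts, and at ZT22 Per3 was higher and Per2 and Cry1 were lower, while Cry2 was called at neither time. That is 2 of 5 members at ZT10, where 5.87% of all genes were called, and 3 of 5 at ZT22, where 14.1% were called. Averaged over both times, 3 of 5 members were called, against 11.8% of all genes.

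At ZT10 Per1 averaged 249 ± 21.99 CPM (SD, n = 3) in young and 181 ± 11.4 CPM in old H2O hearts, a log2 fold change of -0.46 (SE 0.12, adjusted p = 0.0284). The groups did not overlap, but the call was lost without old H2O ZT10 replicate 1, 2 or 3 (adjusted p = 0.095, 0.111 and 0.0505) and without young ZT10 replicate 2 or 3 (0.0571 and 0.137). Per3 averaged 227 ± 12.5 and 152 ± 4.41 CPM at ZT10, a log2 fold change of -0.58 (SE 0.07, adjusted p = 5.77e-05), again without overlap. Per2 was at 152 ± 3.89 CPM in young and 122 ± 11.8 CPM in old H2O hearts, and its log2 fold change of -0.31 (95% interval -0.57 to -0.05, adjusted p = 0.169) was not called although the groups did not overlap. The share of all genes without overlap was not counted. In a fit of only the groups compared Per2 was called (log2 fold change -0.31, adjusted p = 0.00612). Cry1 and Cry2 had log2 fold changes of -0.19 (95% interval -0.39 to 0.01) and -0.04 (95% interval -0.19 to 0.10) at ZT10, and both overlapped.

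At ZT22 Per3 averaged 25.1 ± 3.29 CPM in young and 49.2 ± 0.496 CPM in old H2O hearts, 1.97-fold higher (log2 fold change 0.98, SE 0.10, adjusted p = 3.08e-06). Cry1 averaged 81.8 ± 6.15 and 50.02 ± 4.02 CPM and was 1.63-fold lower in old hearts (log2 fold change -0.70, SE 0.09, adjusted p = 1.48e-05). Neither gene overlapped between the ages at night. Per2 averaged 47.3 ± 14.4 and 28.5 ± 6.95 CPM, a log2 fold change of -0.69 (SE 0.16, adjusted p = 0.00677), and here the groups overlapped. Without young ZT22 replicate 3, the highest of its group, the change of Per2 was -0.48 (adjusted p = 0.0641), and in a fit of only the groups compared the adjusted p was 0.0628. Per1 at 0.18 (95% interval -0.12 to 0.49) and Cry2 at -0.09 (95% interval -0.24 to 0.07) were not called. The 4 macrophage markers were all called higher in old H2O hearts at ZT22, where they summed to between 206 and 234 CPM against 141 to 171 CPM in young hearts, and their part in these differences was not tested. At ZT10, 2 of the 4 were called higher. Endothelial markers summed to between 1159 and 1363 CPM in old H2O and to between 1373 and 1508 CPM in young hearts at ZT22 (1 of 4 called lower), and red blood cell markers to between 151 and 177 CPM and between 93.0 and 141 CPM at ZT10 (1 of 5 called higher), and their part was not tested.

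Over both times together, where all 4 macrophage markers were also called higher in old H2O hearts, Per2 fell by 0.50 (SE 0.10, adjusted p = 0.00286) and Cry1 fell by 0.45 (SE 0.07, adjusted p = 0.000107) on the log2 scale. Per3 was 0.20 higher (SE 0.06, adjusted p = 0.0452), a mean of opposite changes at the 2 times. That call of Per3 held without young ZT10 replicate 3 and without young ZT22 replicate 3, was lost without each of the other 10 libraries (adjusted p up to 0.177) and was lost in DESeq2 (adjusted p = 0.0657). Per1 at -0.14 (95% interval -0.34 to 0.06) and Cry2 at -0.07 (95% interval -0.17 to 0.04) were not called.

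Whether the day to night difference itself changed with age was tested as an interaction of age and time, in which 6.89% of all genes were called. There 3 of 5 members were called. The log2 fold change between ZT10 and ZT22 was smaller in old H2O than in young hearts by 1.55 for Per3 (interaction -1.55, SE 0.13, adjusted p = 5.87e-07) and by 0.64 for Per1 (interaction -0.64, SE 0.19, adjusted p = 0.0441). That of Cry1 was 0.51 closer to 0 (interaction 0.51, SE 0.13, adjusted p = 0.0195). Per2 had an interaction of 0.39 (95% interval -0.04 to 0.82, adjusted p = 0.287) and Cry2 of 0.04 (95% interval -0.17 to 0.26, adjusted p = 0.857). Per3 kept its call without each library in turn. The call of Per1 held only without young ZT10 replicate 1, young ZT22 replicate 2 or old H2O ZT22 replicate 1, and without any 1 of the other 9 libraries the adjusted p ran from 0.053 to 0.188, at its highest without old H2O ZT22 replicate 3 (interaction -0.44). The call of Cry1 was lost without young ZT10 replicate 3 (adjusted p = 0.0549) or young ZT22 replicate 2 (0.0546), and the interaction of Per2 ran from 0.17 without young ZT22 replicate 3 (adjusted p = 0.697) to 0.58 without young ZT22 replicate 1, where it was called (adjusted p = 0.0378).

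**Figure D4:**
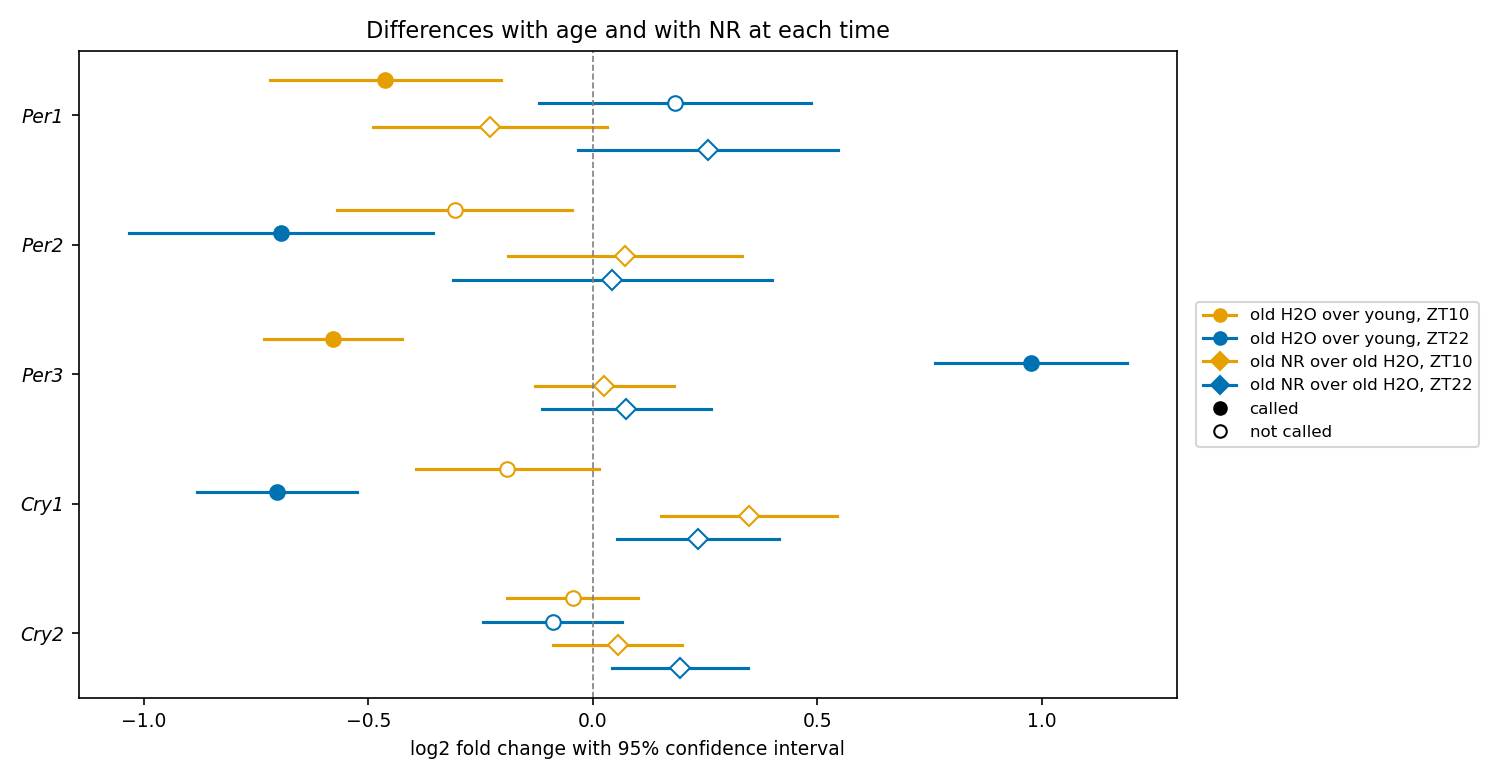
Log2 fold change (x axis) of each gene with its 95% confidence interval for old H2O over young hearts (circles) and old NR over old H2O hearts (diamonds), with ZT10 in orange and ZT22 in blue and filled symbols for called differences. Per3 lies at -0.58 at ZT10 and at 0.98 at ZT22 with age, and no NR difference is called, with Cry1 to the right of 0 at both times.

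Of the 15 other clock genes, 3 were called higher and 3 lower with age at ZT10 (3 and 2 in DESeq2), and 4 higher and 4 lower at ZT22 (4 and 3 in DESeq2). At ZT10 the activators Arntl (log2 fold change 1.90, adjusted p = 0.000401) and Clock (0.60, adjusted p = 0.00139) and the D-box repressor Nfil3 (0.76, adjusted p = 0.021) were higher in old hearts, and Ciart fell by 0.57 (adjusted p = 0.00483). At ZT22 Arntl fell by 0.77 (adjusted p = 2.29e-05), Npas2 by 0.62 (adjusted p = 0.00202) and Nfil3 by 0.85 (adjusted p = 0.000219). Rorb (1.47, adjusted p = 0.00147), Dbp (1.06, adjusted p = 0.0019), Nr1d2 (0.80, adjusted p = 9.55e-05) and Tef (0.35, adjusted p = 0.0285) were higher in old hearts at ZT22. Over both times 5 were called higher and 2 lower (5 and 0 in DESeq2), with the largest change in Rorb (0.85, adjusted p = 0.00843). In the interaction of age and time, 8 of the 15 were called, 3 with a positive value (Arntl at 2.67, Clock at 0.75 and Nfil3 at 1.60) and 5 with a negative one (Nr1d2, Dbp, Tef, Hlf and Bhlhe41), with Dbp at -1.39. DESeq2 called 3 with a positive and 4 with a negative value. None of the 21 enzyme genes was called with age at ZT10 (edgeR, 0 in DESeq2). By edgeR 5 of them had an unadjusted p under 0.05, as had 3049 of all 15443 genes. At ZT22 Btrc, a ubiquitin ligase subunit for PER proteins, was 0.25 higher (adjusted p = 0.0487), which DESeq2 did not call. Of the 7 early genes, 4 were called lower with age at ZT22 (Creb1, Crem, Fos and Srf), of which Fos fell by 1.15 (adjusted p = 0.0116), and 4 had a called interaction (5 in DESeq2), all positive, with Crem at 1.27 (adjusted p = 0.00279). At ZT10 Egr1 was called 0.70 higher (adjusted p = 0.0205). Of the 7 glucocorticoid genes, 1 was called higher at ZT10 (Cdkn1a at 1.05, adjusted p = 0.0142) and 2 lower at ZT22 (1 in DESeq2), where Cdkn1a fell by 0.71 (adjusted p = 0.0137) and Tsc22d3 fell by 0.30 (adjusted p = 0.0141). Their 1 called interaction was that of Cdkn1a (1.76, adjusted p = 0.00168).

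The third comparison, NR against H2O in old hearts, shares the old H2O libraries with the comparison of ages. No member was called by edgeR at ZT10, where 0.285% of all genes were called and 1 member had an unadjusted p under 0.05. None was called at ZT22 (0.35% of all genes, 2 members under 0.05) or over both times (0.337%, 2 members under 0.05). Of all 15443 genes tested by edgeR, 1565 at ZT10, 1737 at ZT22 and 1672 over both times had an unadjusted p under 0.05. DESeq2 called 0, 0 and 1 of the 5.

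Cry1 averaged 36.4 ± 0.547 CPM in old H2O and 46.3 ± 1.77 CPM in old NR hearts at ZT10, and 50.02 ± 4.02 and 59.6 ± 4.96 CPM at ZT22. The NR libraries were above the H2O libraries at both times without overlap, but the share of all genes without overlap was not counted in the NR comparisons. At ZT22 the nearest Cry1 libraries were close, at 54.5 CPM with NR and 54.1 CPM without it. The log2 fold change was 0.35 at ZT10 (95% interval 0.15 to 0.54, adjusted p = 0.144), 0.23 at ZT22 (95% interval 0.05 to 0.42, adjusted p = 0.286) and 0.29 over both times (SE 0.06, 95% interval 0.16 to 0.42, adjusted p = 0.051). The last value was on the other side of the threshold in DESeq2 (adjusted p = 0.0499), in a fit of only the groups compared (0.0289), with the replicate number as a block (0.0243) and without old NR ZT22 replicate 3 (0.0336). Set beside it, the change of Cry1 with age was -0.19 at ZT10 and -0.70 at ZT22, measured against the same old H2O libraries.

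Per1 was 0.23 lower with NR at ZT10 (95% interval -0.49 to 0.03, adjusted p = 0.558), with no overlap between 154 ± 15.7 CPM and 181 ± 11.4 CPM, and 0.26 higher at ZT22 (95% interval -0.03 to 0.55, adjusted p = 0.52). The nearest Per1 libraries at ZT10 all but touched, at 170.5 CPM with NR and 171.1 CPM without it. The interaction of NR and time for Per1 was -0.49 (95% interval -0.87 to -0.10, adjusted p = 0.35). No member was called in this interaction by edgeR or DESeq2, where 0.343% of all genes were called by edgeR. There 1 member, Per1, had an unadjusted p under 0.05 by edgeR, as had 1584 of all 15443 genes. Cry2 was 0.19 higher with NR at ZT22 (95% interval 0.04 to 0.35, adjusted p = 0.297), without overlap. For Per2 and Per3 the NR change at either time was between 0.03 and 0.07, with 95% intervals that reached from -0.31 to 0.40 for Per2 and from -0.13 to 0.26 for Per3. The 5 atrial markers summed to between 112 and 130 CPM in old NR hearts at ZT10 and to between 388 and 505 CPM in old H2O hearts at that time, with 3 of 5 called lower, and their part in the ZT10 values was not tested. At ZT22, 2 of the 4 macrophage markers were called lower with NR (a summed 155 to 171 CPM against 206 to 234 CPM), and the fibroblast markers summed to between 567 and 623 CPM with NR against 637 to 734 CPM (1 of 4 called lower). At ZT10 the fibroblast sums were 520.4 to 594 CPM with NR and 619 to 709 CPM without it (0 of 4 called by edgeR). The part of these markers was not tested.

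None of the 15 other clock genes was called with NR at ZT10 by edgeR (5 at an unadjusted p under 0.05, as were 1565 of all 15443 genes), and DESeq2 called 1. By edgeR and by DESeq2, 1 of the 15 was called higher at ZT22 and 1 over both times. In the interaction of NR and time 1 clock gene was called, Arntl at -1.36 (adjusted p = 0.0201). None of the enzyme, glucocorticoid or early genes was called with NR at either time or over both times by edgeR. At ZT10, 3 of the 7 glucocorticoid genes had an unadjusted p under 0.05 by edgeR, as had 1565 of all 15443 genes. At ZT22, 3 of the 7 early genes and 3 of the 21 enzyme genes did, as did 1737 of all 15443 genes. Every other combination of these lists and times had fewer. DESeq2 called 1 enzyme gene at ZT22 and 1 early gene over both times.

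In HL-1 cells a call needed an adjusted p under 0.01 and a change of more than 1.5-fold. FK866 against Ctrl asks how inhibition of NAD+ salvage moves the repressors in culture, where no time of day is given. Per1 and Cry2 were called higher with FK866, 2 of 5 members against 4.59% of all genes. In all 5 members the FK and Ctrl libraries did not overlap, but the share of all genes without overlap was not counted. By edgeR, all 5 members had an unadjusted p under 0.05, as had 5408 of all 14760 genes tested.

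Per1 measured 19.5, 20.99 and 18.3 CPM in Ctrl and 33.6, 37.7 and 33.7 CPM with FK866, a 1.78-fold rise (log2 fold change 0.83, SE 0.11, adjusted p = 5.17e-05). Cry2 measured 15.9, 15.4 and 14.8 CPM in Ctrl and 24.0, 22.5 and 25.4 CPM with FK866, a 1.56-fold rise (log2 fold change 0.64, SE 0.10, adjusted p = 0.000401). All FK866 libraries of both genes were above all Ctrl libraries by a margin wider than the spread within either group. Per2 measured 25.8, 21.8 and 21.6 CPM in Ctrl and 33.0, 30.9 and 38.2 CPM with FK866, and its 1.48-fold change (log2 fold change 0.56, adjusted p = 0.000732) was just under the fold minimum. It was called without Ctrl replicate 1 (log2 fold change 0.65), FK replicate 1 (0.59) or FK replicate 2 (0.62). Cry1 was 0.26 higher (27.8, 32.1 and 30.1 CPM against 36.0, 34.9 and 36.8 CPM, adjusted p = 0.014), and Per3 was at -0.34 (17.6, 17.8 and 15.6 CPM against 13.7, 12.5 and 13.9 CPM, adjusted p = 0.078). Neither was called, and Per3 was the one member with a lower mean under FK866.

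NR added to FK866 was compared with FK866 alone, in which 4.81% of all genes were called. Per3 was the 1 member called. It measured 24.0, 20.3 and 18.4 CPM with FK+NR, above all FK libraries, a 1.56-fold rise (log2 fold change 0.64, SE 0.14, adjusted p = 0.00283). The call of Per3 was lost without FK replicate 1 (adjusted p = 0.0113) or FK replicate 2 (0.0105) and, through both limits, without FK+NR replicate 1 (log2 fold change 0.53, adjusted p = 0.0175). Cry2 measured 20.2, 15.2 and 16.5 CPM with FK+NR, below all FK libraries, and its log2 fold change of -0.47 (SE 0.10, adjusted p = 0.00348) was under the fold minimum. Without FK+NR replicate 1, the highest of its group, Cry2 was called (log2 fold change -0.59, adjusted p = 0.00105). Cry1 at -0.24 (29.9, 30.2 and 31.0 CPM, adjusted p = 0.0194) and Per1 at -0.26 (31.0, 32.4 and 24.5 CPM, adjusted p = 0.0725) did not overlap with FK either and were not called. The share of all genes without overlap was not counted here. Per2 was at 36.2, 35.7 and 33.7 CPM, 0.05 from FK (95% interval -0.16 to 0.25).

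Against Ctrl, the FK+NR cells had 1 of 5 members called, with 0.901% of all genes called (133 genes, which became 427 without Ctrl replicate 1 and 0 without any other of these 6 libraries), and these libraries also enter the comparisons above. Per2 was 1.53-fold higher than in Ctrl (log2 fold change 0.61, SE 0.10, adjusted p = 0.00729), and Per1 was 1.49-fold higher (0.57, SE 0.11, adjusted p = 0.00916), under the fold minimum. The call of Per2 held without Ctrl replicate 1 and was lost without Ctrl replicate 2 or 3 (adjusted p = 0.0271 and 0.031) or FK+NR replicate 1, 2 or 3 (0.0469, 0.0266 and 0.0179), and with a filter at an average count over 5 (0.0115). Cry1 differed from Ctrl by 0.02 (95% interval -0.13 to 0.17), Cry2 by 0.17 (95% interval -0.05 to 0.39) and Per3 by 0.30 (95% interval 0.01 to 0.58, adjusted p = 0.111).

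Ex527 on top of FK866 and NR asks which NR responses need SIRT1 activity. No member was called against FK+NR by edgeR or DESeq2, with 0.596% of all genes called. By edgeR 3 members had an unadjusted p under 0.05, as had 3430 of all 14760 genes tested. Cry2 measured 19.7, 24.0 and 22.3 CPM and was 0.35 above FK+NR (95% interval 0.13 to 0.57, adjusted p = 0.052). Per3 measured 17.1, 18.4 and 12.2 CPM, below all FK+NR libraries, at -0.39 (95% interval -0.67 to -0.11, adjusted p = 0.0865). The nearest Per3 libraries all but touched, at 18.38 CPM with Ex527 and 18.44 CPM without it. The share of all genes without overlap was not counted. Per1 measured 31.4, 36.6 and 37.6 CPM, at 0.27 (95% interval 0.05 to 0.49, adjusted p = 0.127). The means of these 3 genes lay on the FK side of FK+NR, but none of the differences was called. The same FK+NR libraries enter this comparison and that of FK+NR with FK, with opposite sign. A high or low FK+NR mean alone would thus put the Ex527 means on the FK side, so no dependence on SIRT1 can be read from this. Per2 (35.7, 41.8 and 35.3 CPM) and Cry1 (28.9, 29.4 and 32.0 CPM) were 0.10 and -0.01 from FK+NR. Against FK alone, 0 of 5 members were called by edgeR or DESeq2, with 1.27% of all genes called. By edgeR 1 member, Cry1, had an unadjusted p under 0.05 (log2 fold change -0.25, 95% interval -0.40 to -0.10, adjusted p = 0.0289), as had 3999 of all 14760 genes.

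**Figure D5:**
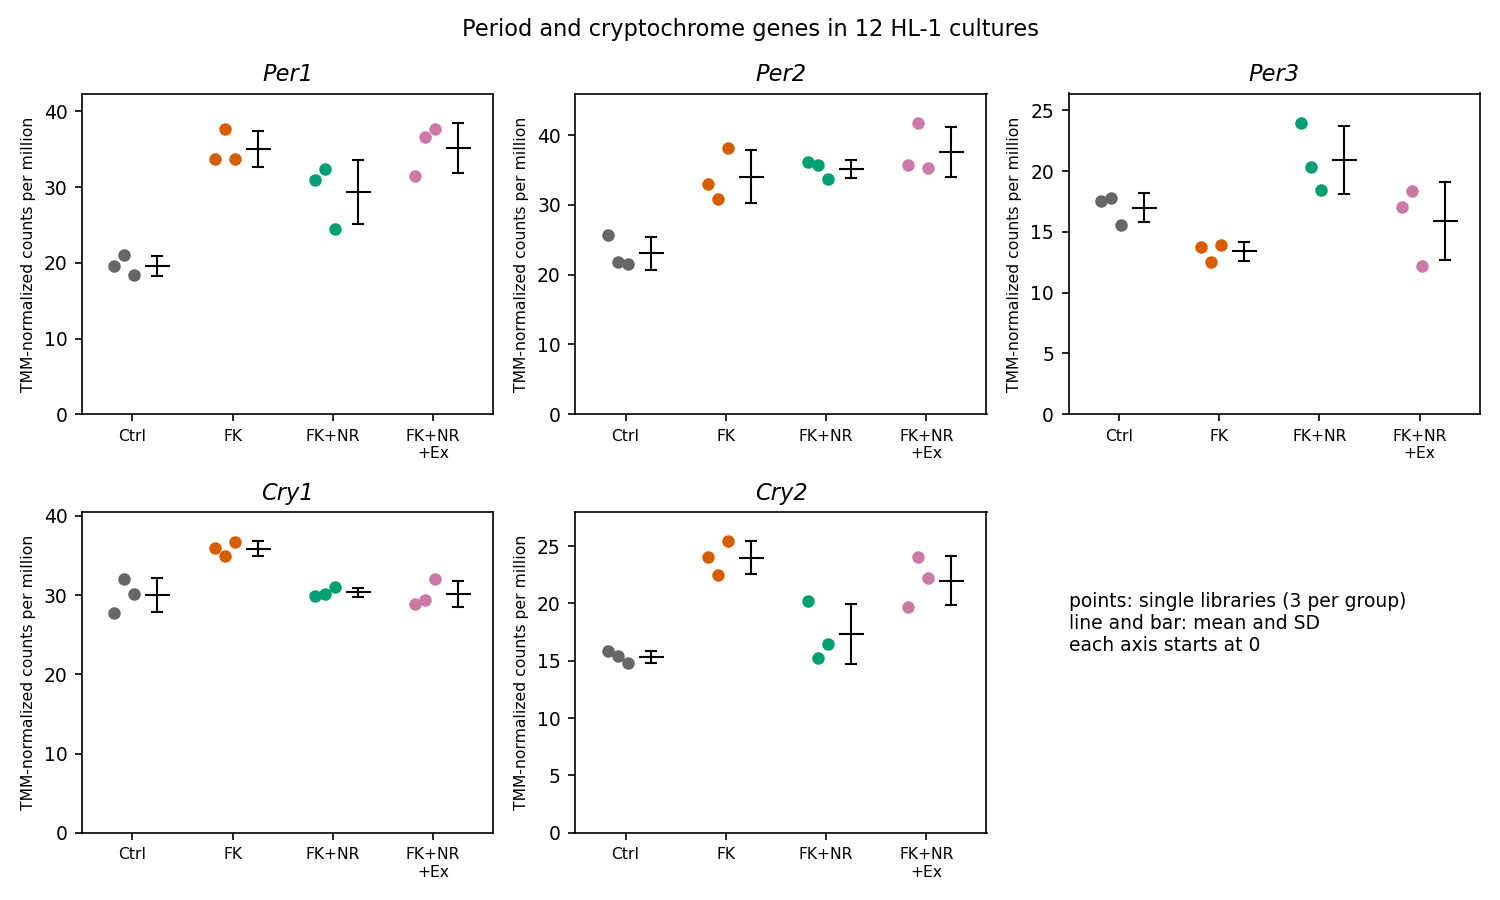
TMM-normalized CPM of each gene in the 12 HL-1 libraries, by treatment, with 1 point for each library and the mean and SD beside the 3 points of each group. Per1 and Cry2 are higher with FK866 than in Ctrl (35.03 against 19.6 CPM and 24.0 against 15.4 CPM on average), and Per3 is highest with FK866 and NR (20.9 CPM).

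Among the 13 other clock genes tested in HL-1 cells, whose median log2 fold change with FK866 was 0.07 (all genes 0.02), 1 was called higher and 1 lower with FK866, the latter being Dbp (it fell by 0.73, adjusted p = 0.000458). With NR added to FK866, 0 were called higher and 1 lower. Of the 20 enzyme genes tested, Sirt1, the NAD+-dependent deacetylase that acts on PER2, was called higher with FK866 (0.70, adjusted p = 0.000119). The paper, whose calls came from DESeq2, states that Sirt1 missed its fold-change cutoffs, without naming the comparison. The source of this difference was not tested. Among the early genes, Egr1 was 0.76 higher with FK866 (adjusted p = 0.00343) and 0.85 higher with FK+NR than in Ctrl (adjusted p = 0.00932). None of the 6 glucocorticoid genes tested was called with FK866 by edgeR or DESeq2. By edgeR 5 had an unadjusted p under 0.05, as had 5408 of all 14760 genes. The 4 listed fibroblast markers summed to between 639 and 656 CPM with FK866 and to between 810 and 864 CPM in Ctrl, with 1 of the 3 tested called lower. With FK+NR they summed to between 756 and 786 CPM, above all FK libraries, with 1 of 3 called higher against FK, and their part in the member values was not tested.

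Across the 18 hearts, log2 CPM of the members was compared with each other as a description, bearing in mind that time of day, age and NR are shared by all genes. Per1, Per2, Per3 and Cry2 ran together, with Pearson's r between 0.848 (Per2 and Per3) and 0.947 (Per1 and Per3), and Cry1 ran against them, with r from -0.60 (Per2) to -0.873 (Per3). Over the 12 HL-1 libraries Per1 ran with Per2 (r = 0.839) and Cry2 (r = 0.814), while Per3 ran against Cry1 (r = -0.648) and was near 0 with Per2 (r = 0.0665). Among the 11075 heart genes with an average count of at least 50, Per3 was most like Tef (r = 0.984), Dbp (0.983), Nr1d2 (0.973), Hlf (0.969) and Intu (0.963), so that 4 of the 5 are on the list of clock genes. Per1 was most like Usp54 (0.969), Pim3 (0.964), Ciart (0.951), Usp2 (0.947) and Per3. Per2 was most like Rhobtb1 (0.9754), Coq10b (0.966), Noct (0.959), Cebpb (0.955) and Mcf2l (0.955). Cry2 was most like Lonrf1 (0.967), Rhobtb1 (0.966), Usp2 (0.964), Tspan4 (0.960) and Ciart (0.949). Cry1 was most like Xpot (0.941), Mif4gd (0.891), Palmd (0.881), Lmcd1 (0.880) and Srpk1 (0.867), none of them on the clock list. Ranked by Spearman's rho instead, the closest gene was Tob2 for Per1, Cebpb for Per2, Dbp for Per3, Xpot for Cry1 and Art5 for Cry2, so the leading gene was the same by both measures for Cry1 only. By rho the 5 genes closest to Per3 were Dbp, Rsad1, Fdft1, Tef and Tmem86a, of which only Dbp and Tef are on the clock list. In HL-1 cells, among 11579 genes, the 3 closest genes were Tmem181a, Fbxl18 and Cpsf7 for Per1 (r from 0.926 to 0.933) and Zdhhc21, Cpsf7 and Tep1 for Per2 (0.965 to 0.970). For Per3 they were Casz1, 5033428I22Rik and Nrbp2 (0.942 to 0.957), for Cry1 Car13 (0.939) and Zfp367 (0.932) were among them, and for Cry2 Mcam, Zbtb21 and Lrp8 (0.932 to 0.939). None of these was among the 5 closest genes of the same member in hearts.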

How the data were processed

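The series measured mRNA in 18 mouse hearts and 12 HL-1 cultures. For the hearts, the authors trimmed reads with Trimmomatic 0.39, aligned them to mm10 with STAR 2.7.10a, removed duplicates with Picard 3.0.0 and counted reads over exons with featureCounts 2.0.4, and deposited counts per gene. Removing duplicates can lower the values of the most abundant genes. The deposited table named as raw holds a score, namely the counts the authors divided by a DESeq2 1.36.0 size factor and rounded (its own size factors were 1.01, against 0.68 to 1.44 in the table named as normalized). The table named as normalized therefore served as the counts. For HL-1 cells the authors deposited counts and FPKM; HISAT2 is named in the submitters' processing notes without a version, and the counter is not given in the sources used here. The FPKM values equalled count per length and total within a ratio of 0.968 to 1.01 and served as a check only.

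Here, counts were fitted with edgeR 4.0.16 (R 4.3.3, limma 3.58.1), with TMM normalization and the two-sided quasi-likelihood test, in 1 fit over all 18 hearts (average count over 5, adjusted p under 0.05) and 1 over all 12 HL-1 libraries (edgeR's own filter on low counts, adjusted p under 0.01 and over 1.5-fold). P-values were adjusted by Benjamini and Hochberg over all genes tested, and every adjusted p in the text is from edgeR unless DESeq2 is named. Groups came from the labels, with 3 libraries each. The SE was the log2 fold change over the square root of its F value, and intervals cover 95%. Levels per length used merged GENCODE M21 exons. DESeq2 1.42.0, other scaling, other filters, only the groups compared, a replicate block and leaving out each library were tried as alternatives. Intervals and totals reflect libraries of 3922137 to 7562215 counts in hearts and 21337922 to 35000109 in HL-1 cells. The scripts were tested on simulated data. The 5 members, the gene lists and the rule for named genes (all members, the called list genes of largest change, and the genes of highest correlation, 5 per member in hearts and 3 in HL-1 cells) were chosen with earlier results of these data known. List genes named beyond those of largest change were picked after their values were seen. Results of a few list genes are not reported here.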

Additional observations from a re-analysis of the deposited data

Results flagged for a closer look

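The difference between ZT10 and ZT22 differed with age for 3 of the 5 genes, by the interaction term of the edgeR fit over all hearts, where 6.89% of all genes were called. For Per3 the interaction was -1.55 on the log2 scale (adjusted p = 5.87e-07), and ZT10 was above ZT22 in both ages. For Per1 it was -0.64 (adjusted p = 0.0441) and for Cry1 0.51 (adjusted p = 0.0195), with Cry1 lower at ZT10 in both ages. Leaving out 1 library at a time, the call of Per1 was lost in 9 of 12 fits and that of Cry1 in 2 of 12, while Per3 kept its call. The direction of the time difference was the same in young and old H2O hearts for all 3 genes.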

How the results depend on the processing

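The check did not settle whether replicate numbers pair the samples. No 2 groups compared directly with each other had all of their 3 pairs over 0.1. Yet 11 of 18 hearts and 4 of 12 HL-1 libraries matched best with their own number. Old H2O hearts at ZT10 and old NR hearts at ZT22 had all 3 pairs over 0.1 (0.206, 0.112 and 0.110). Those groups meet only in the contrasts of NR over both times and of NR and time. Deviations of same-numbered hearts correlated from -0.25 to 0.31 (45 pairs, 19 over 0.1), and those of HL-1 libraries from -0.55 to 0.23 (18 pairs, 6 over 0.1). With the replicate number as a block, 1 member (Cry1) was called with NR over both times, 0 for FK+NR against Ctrl (Per2, adjusted p = 0.0126), and no other member call changed.

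DESeq2 and a fit of only the groups compared each called 1 member (Cry1) with NR over both times, and the latter also called 1 (Cry1, adjusted p = 0.0256) with NR at ZT10 and Per2 with age at ZT10 (adjusted p = 0.00612) and lost Per2 with age at ZT22 (0.0628). An average count over 5 left 0 members called for FK+NR against Ctrl. At an adjusted p under 0.05 with no fold minimum, 4 members were called for FK866, 3 for FK+NR against FK, 2 for FK+NR against Ctrl and 1 for FK+NR+Ex against FK. At that setting 3661, 4265, 3532 and 1804 of all 14760 genes tested were called in the same comparisons, in that order. Leaving out 1 library gave 1 to 3 members for the interaction of age and time, 1 to 2 for age at ZT10, 0 to 1 for NR over both times, and 0 to 1 for FK+NR against FK and against Ctrl. The causes of these shifts were not tested.

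All 32 reversals were of values not called, the lowest adjusted p being 0.777. DESeq2 turned the Per2 interaction of NR and time to -0.0076. Without 1 library, ranges that crossed 0 in hearts were, for age, -0.021 to 0.31 (Per1 at ZT22), -0.11 to 0.0026 (Cry2 at ZT10) and -0.022 to 0.14 (Cry2 interaction). For NR they were -0.070 to 0.12 (Per1, both times), -0.0032 to 0.13 (Per2, ZT10), -0.10 to 0.13 (Per2, ZT22), -0.014 to 0.10 (Per2, both times), -0.062 to 0.18 (Per2 interaction), -0.0017 to 0.066 (Per3, ZT10), -0.051 to 0.14 (Per3, ZT22), -0.013 to 0.087 (Per3, both times) and -0.11 to 0.077 (Per3 interaction). In HL-1 cells they were -0.031 to 0.070 (Cry1, FK+NR against Ctrl), -0.072 to 0.0074 (Cry1, Ex527 against FK+NR), -0.050 to 0.079 (Per1, FK+NR+Ex against FK) and -0.0090 to 0.13 (Per2, FK+NR against FK). In all, 1234 of 1350 alternative values and counts kept their direction and their side of the threshold, and the length column of the HL-1 table held the same lengths for the 5 genes as the merged exons.

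Counts over all genes moved more. Only the groups compared gave 1479 for age at ZT10 (906 in the fit of all hearts), 1168 for age at ZT22 (2183), 234 for NR at ZT10 (44) and 2 for NR at ZT22 (54). DESeq2 gave 1453 for age at ZT22, and in HL-1 cells 242 for FK+NR against Ctrl (133) and 133 for Ex527 against FK+NR (88). The block gave 2419 for time in young hearts (2219) and 762 for time in old H2O hearts (649). It gave 70, 86 and 88 for NR at ZT10, at ZT22 and over both times (44, 54 and 52) and 8 for FK+NR against Ctrl. With no filter, the last was 764, FK+NR against FK 1166 (710) and Ex527 against FK+NR 488. With an average count over 5, FK+NR against Ctrl was 0, and summing the 2 similar old NR hearts gave 0 for NR at ZT10 and 31 over both times. Leaving out 1 library gave 0 to 22 genes for NR at ZT10, 2 to 78 for NR at ZT22 (2 without old NR ZT22 replicate 2), 22 to 66 for NR over both times and 15 to 78 for its interaction (53), 478 to 614 and 1321 to 2007 for age at ZT10 and ZT22, 349 to 746 and 455 to 875 for time in old H2O (649) and old NR hearts (829), 0 to 427 for FK+NR against Ctrl, 112 to 291 for FK+NR+Ex against FK (188) and 51 to 82 for Ex527 against FK+NR.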
